A study of Homo sapiens with 10 samples.

Results

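The genes examined encode the NF-kB subunits (NFKB1, NFKB2, REL, RELA and RELB), the inhibitors that hold them in check (NFKBIA, NFKBIB and NFKBIE), the A20 ubiquitin-editing enzyme TNFAIP3 and the nuclear cofactor BCL3. They were chosen by gene symbol from the platform annotation, and 9 of the 10 matched, out of 17709 named and 21448 tested probe sets. Each of the 9 had 1 probe set, so no choice by brightness was needed. BCL3 had no match in the annotation used here and is given without values. The group was taken up after genes of this pathway had been seen to be lower in treated SK-N-AS cells of the same data, so the treatment values below describe the arrays and are no independent evidence of that direction.

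Transcript levels came from 10 arrays of cultured human neuroblastoma cells. SK-N-FI, obtained from a cell bank, had 2 arrays of control cells given PBS and 2 arrays of cells given BG-P1600-TAT at 30 µM, each for 48 h, whereas the series design names 3 replicates. SK-N-AS, received as a gift and called a primary cell line in the labels, had 3 control arrays (numbered 25, 26 and 27) given PBS and 3 arrays (28, 29 and 30) given the compound at the same dose and for the same time. BG-P1600-TAT is a PEGylated conjugate that the series title describes as directed at the norepinephrine transporter and the integrin αvβ3. The SK-N-AS titles shorten its name to BG-P-TAT, which was read as the same compound. All cells grew in IMDM with fetal bovine serum, and no genetic change is named for either line. Each line is a single cell line. Whether the SK-N-AS arrays of an arm stem from different cultures is not given in the labels, and the p-values then reflect array-to-array spread that may be technical.

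NF-kB proteins are dimeric transcription factors that switch on genes of inflammation, survival and cell adhesion. In resting cells the IkB inhibitors keep the dimers in the cytoplasm. Signals from cytokine or innate immune receptors lead kinases to mark IkB for destruction, and the freed dimers bind kB sites in DNA. Several of the genes that NF-kB activates encode its own subunits and its own brakes, NFKBIA and TNFAIP3 among them, which gives the pathway its negative feedback.

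Because the pathway can act on its own genes, the promoters of the members were searched for kB sequences. RefSeq windows of GRCh38.p14, from 250 bases before to 50 bases after the start, were held for 8 of the 10 genes, in 13 windows. RELB and NFKBIE had no entry. The motif GGGNNTTTCC, searched on both strands, was found in 7 of the 13 windows and in 6 of the 8 genes. The same motif was in 1.91% of all 35116 windows and in 2.33% of 27305 genes. A wider kB consensus was also searched, which covers some but not all forms of this motif. It was in 8 of the 13 windows and 7 of the 8 genes, with BCL3 added to the 6. Its share was 11.3% of all windows and 13.3% of all genes. Neither motif was in the 2 RELA windows. A match is a description of letters and not a measured binding site, and no binding was measured here.

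The 4 windows shown next belong to members whose signal was far higher in SK-N-AS than in SK-N-FI, and capitals mark the GGGNNTTTCC matches on either strand. They lie at chr4:102501109-102501408 (plus strand) for NFKB1, chr10:102395455-102395754 (plus strand) for NFKB2, chr6:137867009-137867308 (plus strand) for TNFAIP3 and chr14:35404700-35404999 (minus strand) for NFKBIA.
NFKB1: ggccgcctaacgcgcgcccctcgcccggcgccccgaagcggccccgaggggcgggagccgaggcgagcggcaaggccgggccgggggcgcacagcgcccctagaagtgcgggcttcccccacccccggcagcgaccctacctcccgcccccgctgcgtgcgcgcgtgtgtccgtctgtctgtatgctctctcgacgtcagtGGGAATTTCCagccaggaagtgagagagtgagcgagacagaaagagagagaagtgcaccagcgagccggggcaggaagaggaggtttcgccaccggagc
NFKB2: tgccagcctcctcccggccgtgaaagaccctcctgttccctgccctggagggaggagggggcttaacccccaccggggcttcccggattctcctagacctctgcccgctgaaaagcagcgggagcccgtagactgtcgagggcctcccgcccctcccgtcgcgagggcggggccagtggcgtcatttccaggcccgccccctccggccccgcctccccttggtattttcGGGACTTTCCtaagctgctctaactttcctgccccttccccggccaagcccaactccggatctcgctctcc
TNFAIP3: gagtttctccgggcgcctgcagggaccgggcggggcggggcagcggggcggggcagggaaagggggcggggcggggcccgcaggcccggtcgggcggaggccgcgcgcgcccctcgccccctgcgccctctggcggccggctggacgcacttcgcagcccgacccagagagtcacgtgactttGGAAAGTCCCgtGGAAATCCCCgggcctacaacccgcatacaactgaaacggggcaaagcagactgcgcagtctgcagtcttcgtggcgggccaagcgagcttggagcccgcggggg
NFKBIA: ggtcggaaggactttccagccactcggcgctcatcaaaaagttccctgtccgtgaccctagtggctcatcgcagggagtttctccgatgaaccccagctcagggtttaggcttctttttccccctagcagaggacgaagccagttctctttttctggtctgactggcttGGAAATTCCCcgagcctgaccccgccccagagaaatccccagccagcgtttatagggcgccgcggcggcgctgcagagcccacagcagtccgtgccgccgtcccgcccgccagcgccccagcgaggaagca

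The NFKB1 match began 49 bases upstream of the start, and that of NFKBIA 81 bases upstream. TNFAIP3 had 2 matches in its window, 67 and 55 bases upstream. Of the 3 NFKB2 windows, the one shown had its match 21 bases upstream, and the window at chr10:102394328-102394627 had another 78 bases upstream. REL and NFKBIB, shown as short stretches because their signals did not follow those of the genes above, also held a match, 46 and 28 bases upstream of their starts.
REL: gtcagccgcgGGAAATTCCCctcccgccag
NFKBIB: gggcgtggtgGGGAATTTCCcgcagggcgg

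Whether a gene was measured at all was judged on each array against the 95th percentile of the 612 negative controls, called the background threshold here. NFKBIA and RELA exceeded it on all 10 arrays and NFKBIB on none. NFKB1, NFKB2, RELB and TNFAIP3 exceeded it on all 6 SK-N-AS arrays. That makes 6 of 9 members above it on every array of each SK-N-AS group, against 31.5% of all probe sets in controls and 34.1% in treated cells. In SK-N-FI it was 5 of 9 in controls and 4 of 9 in treated cells, against 42.3% and 38.2%. In SK-N-FI, NFKB1 did so on 3 of 4 arrays and the other three on none. NFKBIE showed the opposite picture, above the threshold on all 4 SK-N-FI arrays and on 0 of 6 in SK-N-AS. REL exceeded it on all 4 SK-N-FI arrays and on 3 of 6 in SK-N-AS. In bulk RNA of a culture, fewer cells with a transcript and less transcript per cell cannot be told apart.

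**Figure D1:**
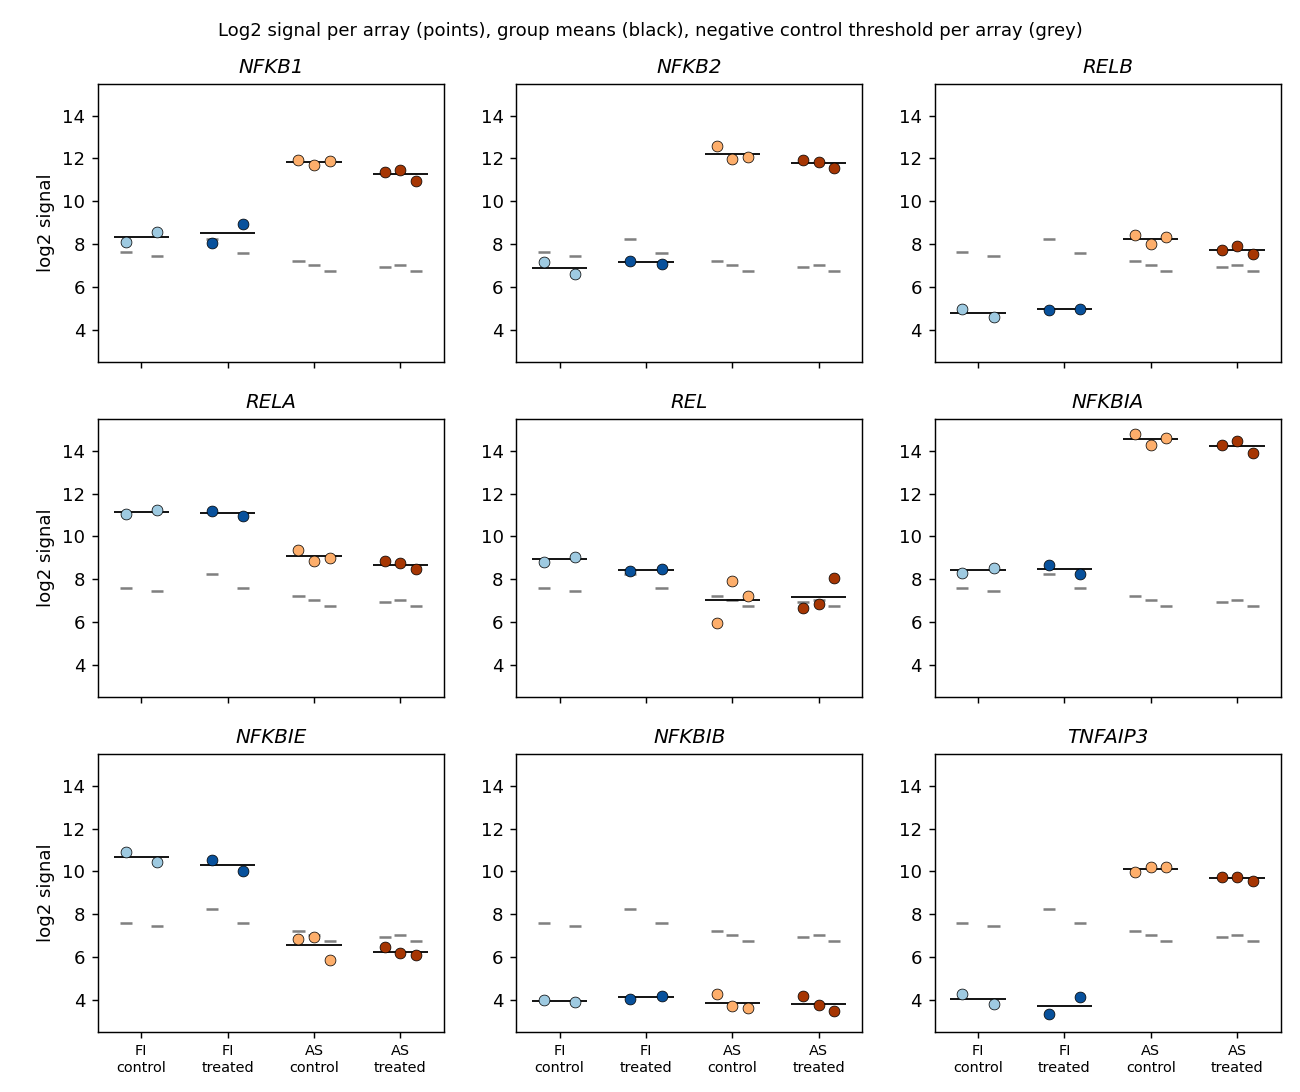
Log2 signal of each of the 9 measured genes, 1 panel per gene, with 1 point per array in the 4 groups of cell line and treatment. Black lines are group means and grey dashes the background threshold of each array; NFKB1, NFKB2, RELB, NFKBIA and TNFAIP3 lie higher on all SK-N-AS than on all SK-N-FI arrays, and RELA, REL and NFKBIE lie lower.

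Levels of the lines are set side by side with a caution. The SK-N-FI arrays had medians of 7.02 to 7.07 and the SK-N-AS arrays of 6.02 to 6.09, as if each line had been normalized by itself. In controls, SK-N-AS minus SK-N-FI gave a median of -0.61 over all probe sets. Each line difference of a member is therefore given on the deposited log2 scale and after quantile normalization over all 10 arrays, where that median was 0.04. The sample titles name no array run. If the lines were run apart, cell line and array run could not be told apart on either scale.

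NFKB1 encodes p105, which is processed to the p50 subunit. Its log2 signal was 8.08 and 8.57 in SK-N-FI controls, 8.05 and 8.96 in treated SK-N-FI cells, 11.92, 11.68 and 11.89 in SK-N-AS controls and 11.38, 11.47 and 10.97 in treated SK-N-AS cells. The SK-N-FI groups overlapped, and both lay far below the SK-N-AS groups. Control SK-N-AS cells were 11.3-fold higher than control SK-N-FI cells (log2 difference 3.50, 95% interval 2.87 to 4.14, limma with Benjamini-Hochberg adjusted p = 6.83e-07). The difference was 2.77 in treated cells. After quantile normalization it was 4.89 in controls and 4.20 in treated cells.

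NFKB2 encodes p100, the precursor of the p52 subunit of the noncanonical pathway. It read 7.15 and 6.58 in SK-N-FI controls and 7.20 and 7.09 in treated SK-N-FI cells, all below the background threshold. In SK-N-AS it read 12.60, 11.96 and 12.09 in controls and 11.95, 11.84 and 11.58 in treated cells. Set against the background of the SK-N-FI arrays, control SK-N-AS cells were at least 25.9-fold higher and treated cells at least 14.6-fold. The fitted log2 difference in controls was 5.35 (4.77 to 5.93, limma adjusted p = 8.43e-09). For such a bound, each dim array counts as its threshold or as the measured signal, whichever is higher. After quantile normalization the bounds were 59.0-fold and 35.6-fold, and the fitted differences 6.39 and 5.77.

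RELB, the partner of p52 in the noncanonical pathway, was below the threshold in SK-N-FI at 4.96 and 4.57 in controls and 4.94 and 4.98 in treated cells. SK-N-AS controls read 8.41, 7.98 and 8.31 and treated cells 7.73, 7.92 and 7.53. RELB was above background in SK-N-AS by a small margin, and no SK-N-AS array exceeded the 99th percentile of the negative controls. The bound in controls was accordingly at least 1.64-fold, beside a fitted difference of 3.47 (2.96 to 3.98, limma adjusted p = 1.1e-07). In treated cells the deposited values gave no bound above 1, beside a fitted difference of 2.77. After quantile normalization RELB was at least 4.32-fold higher in controls and at least 2.33-fold in treated cells, with fitted differences of 4.28 and 3.57.

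RELA, the p65 subunit that carries the main activation domain of the canonical pathway, ran the other way on the deposited scale. SK-N-FI read 11.05 and 11.21 in controls and 11.21 and 10.97 in treated cells, against 9.35, 8.86 and 8.97 in SK-N-AS controls and 8.83, 8.74 and 8.45 in treated SK-N-AS cells. Control SK-N-AS cells were 4.20-fold lower (log2 difference -2.07, -2.58 to -1.56, limma adjusted p = 8.45e-06). That value lay at percentile 19.1 of all probe sets. After quantile normalization the control difference was -0.36 and was not called, and the treated difference was -0.72, down from -2.42, and was still called.

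REL, the c-Rel subunit best known from lymphocytes, varied most within SK-N-AS. It read 8.82 and 9.04 in SK-N-FI controls and 8.37 and 8.48 in treated SK-N-FI cells. SK-N-AS controls read 5.97, 7.89 and 7.21 and treated cells 6.64, 6.85 and 8.05, a range of more than 1 log2 unit in each arm. The control difference was -1.91 (-2.99 to -0.82, limma adjusted p = 0.0054), and it was -0.43 and not called after quantile normalization. In treated cells the deposited difference was -1.25, and after quantile normalization it turned to 0.20 without a call. The deposited call in treated cells also ended without SK-N-FI treated array 1 or 2 and without SK-N-AS treated array 28 or 29, with differences from -1.68 to -0.98 over the omissions. REL therefore has no settled direction between the lines.

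Among the inhibitors, NFKBIA (IkB alpha, the fast feedback inhibitor) had a large line difference that was measured above background on both sides. SK-N-FI read 8.30 and 8.53 in controls and 8.68 and 8.24 in treated cells. The margin over the background threshold there was small, from 0.425 to 1.095 log2 units. No SK-N-FI array exceeded the 99th percentile of the negative controls. SK-N-AS controls read 14.78, 14.29 and 14.61 and treated cells 14.28, 14.45 and 13.89. Control SK-N-AS cells were 70.9-fold higher (log2 difference 6.15, 5.59 to 6.71, limma adjusted p = 2.19e-09). The difference was 5.75 in treated cells. After quantile normalization it was 7.25 in controls and 6.87 in treated cells.

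NFKBIE (IkB epsilon, a slower inhibitor of RELA and REL dimers) was the inhibitor that was higher in SK-N-FI. It read 10.92 and 10.45 in SK-N-FI controls and 10.55 and 10.03 in treated SK-N-FI cells. SK-N-AS controls read 6.85, 6.93 and 5.85 and treated cells 6.47, 6.20 and 6.08, all below background. The excess of SK-N-FI was at least 12.8-fold in controls and at least 10.5-fold in treated cells. The fitted difference in controls was -4.14 (-4.86 to -3.42, limma adjusted p = 4.55e-07). The bounds were 4.11-fold and 3.48-fold after quantile normalization, where the fitted differences of -2.57 and -2.56 were still called.

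NFKBIB (IkB beta) was below background everywhere, with SK-N-FI arrays from 3.91 to 4.19 and SK-N-AS arrays from 3.48 to 4.27. Its values carry no information on the transcript, and its line difference of -0.09 in controls was not called (limma adjusted p = 0.801). The difference was -0.31 in treated cells. After quantile normalization the values were 0.0046 and -0.20, again without a call.

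TNFAIP3 (A20, which removes activating ubiquitin chains upstream of the kinases) read 4.26 and 3.78 in SK-N-FI controls and 3.32 and 4.13 in treated SK-N-FI cells, below background on all 4. SK-N-AS controls read 9.95, 10.22 and 10.22 and treated cells 9.75, 9.72 and 9.54. SK-N-AS was at least 6.11-fold higher in controls and at least 3.37-fold in treated cells. The fitted difference was 6.12 in controls (5.53 to 6.70, limma adjusted p = 3.19e-09) and 5.95 in treated cells. After quantile normalization the bounds were 15.7-fold and 9.12-fold, and the fitted differences 6.83 and 6.68.

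Counted together, limma called 8 of the 9 members between the control groups, where 59.3% of all probe sets were called. Higher values in SK-N-AS were called for 5 of 9 (NFKB1, NFKB2, RELB, NFKBIA and TNFAIP3), against 11.5% of all probe sets. Higher values in SK-N-FI were called for 3 of 9 (RELA, REL and NFKBIE), against 47.8%, which is no more than the background. After quantile normalization the same 5 were called higher in SK-N-AS, against 24.1%, and NFKBIE alone was called higher in SK-N-FI, against 22.5%. The control and treated comparisons shared the same estimate of spread, from all 10 arrays, and are not independent. Treated arrays gave the same split of 5 and 3 of 9 on the deposited scale, against 11.2% and 47.8%. After quantile normalization they gave 5 and 2 of 9, against 23.5% and 21.9%, RELA being called and REL not. The arrays of the lines did not overlap for these 8 members in either arm. Such arrays were higher in SK-N-AS for 17.2% and lower for 56.0% of all probe sets in controls, and for 16.5% and 55.7% in treated cells. Within all probe sets, the control difference of NFKBIA lay at percentile 99.8 and that of NFKB1 at 99.1.

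**Figure D2:**
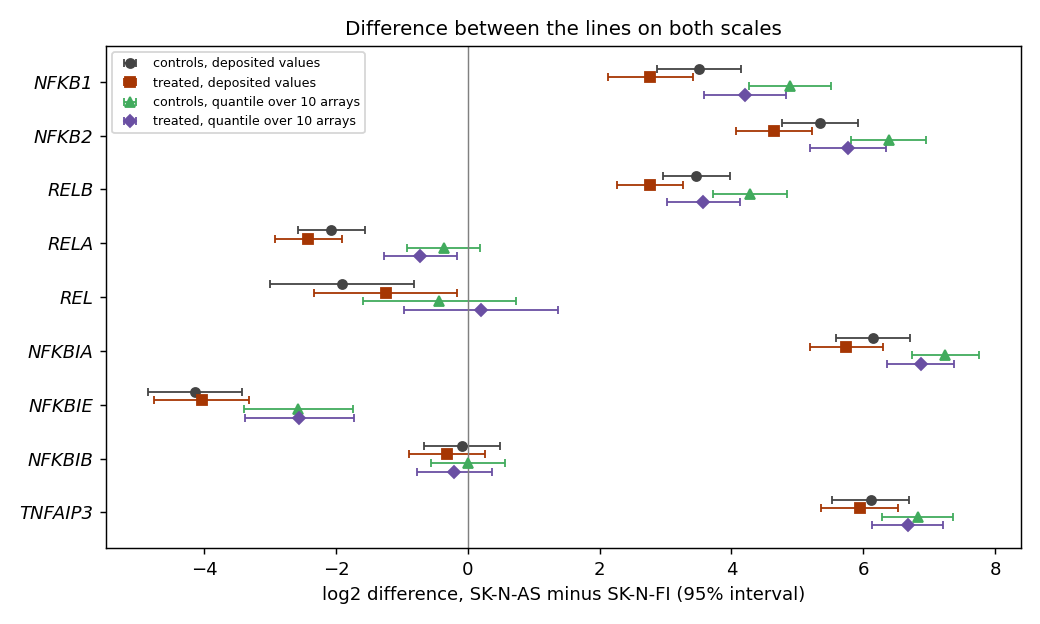
Log2 difference between the cell lines, SK-N-AS minus SK-N-FI, for each gene (horizontal axis), with points for controls and treated cells on the deposited scale and after quantile normalization over 10 arrays, and bars for 95% intervals. NFKB1, NFKB2, RELB, NFKBIA and TNFAIP3 stay right of 0 on both scales and NFKBIE left of 0, while the REL and RELA differences shrink on the quantile scale.

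In SK-N-AS, the treated mean was below the control mean for 8 of the 9 members, as it was for 50.8% of all probe sets, and REL alone was above. The median log2 change of the members was -0.39, against -0.00467 for all probe sets. The groups of 3 arrays did not overlap for 5 of 9 members (NFKB1, NFKB2, RELB, RELA and TNFAIP3), all lower in treated cells, against 4.02% of all probe sets. None of the 9 was higher without overlap, against 3.29%. Adjusted p from limma was 1.00 for each of the 9, and limma called 0 of 21448 probe sets (0%), with 557 at an unadjusted p under 0.05. These counts belong to the contrast on which the genes were taken up and are given as a description.

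Among the subunits, NFKB1 went from 11.83 ± 0.13 to 11.27 ± 0.27 (SD, n = 3), a log2 change of -0.55 with a 95% interval of -1.04 to -0.07. All 3 treated arrays lay below the lowest control array. RELB had a change of -0.51 (-0.996 to -0.02), and RELA one of -0.39 (-0.89 to 0.12). For NFKB2 the change was -0.43 (-0.97 to 0.11). The arms of NFKB2 were separated by little, since control array 26 read 11.96 and treated array 28 read 11.95, and those of RELA likewise, at 8.86 and 8.83. REL had a change of 0.16 (-1.01 to 1.32), which spans a 2-fold difference in either direction.

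Among the brakes, TNFAIP3 went from 10.13 ± 0.16 to 9.67 ± 0.11 (SD, n = 3), a change of -0.46 (-0.91 to -0.01). NFKBIA had a change of -0.36 (-0.89 to 0.18), and its treated array 29 lay among the controls. NFKBIE and NFKBIB, both below background in this line, read -0.29 and -0.06. The 95% intervals of RELB, RELA, NFKB2, NFKBIA and TNFAIP3 excluded a 2-fold change in either direction.

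**Figure D3:**
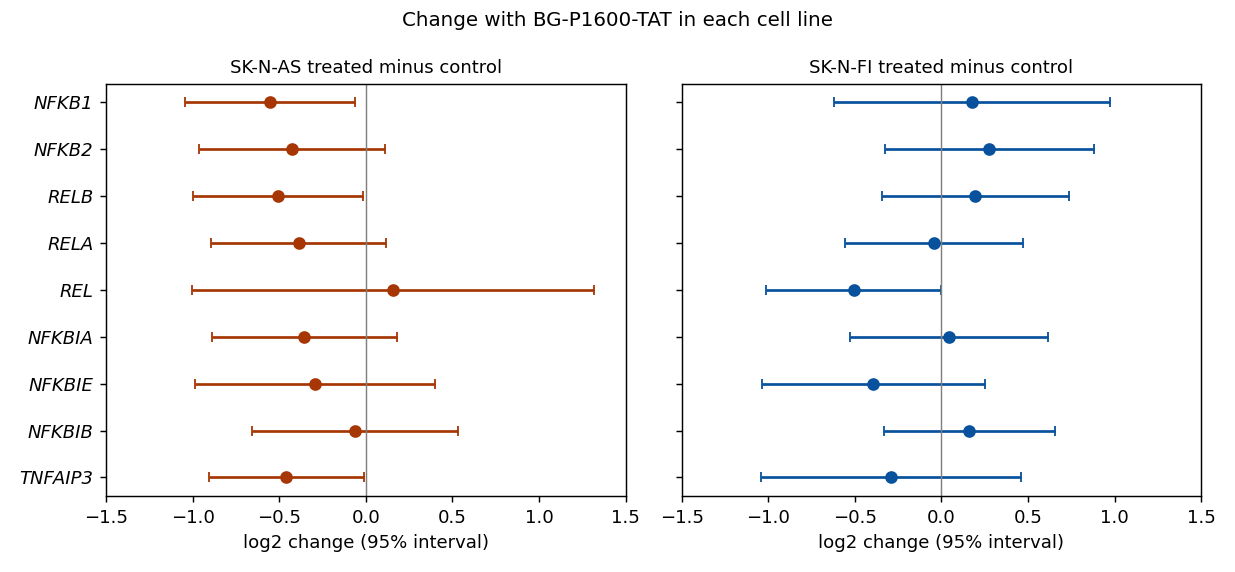
Log2 change of each gene, treated minus control, in SK-N-AS (left, 3 arrays per group) and SK-N-FI (right, 2 arrays per group), with 95% intervals from limma. In SK-N-AS, 8 of 9 points lie left of 0, and in SK-N-FI 4 of 9 do.

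The arrays of SK-N-AS were not alike within an arm, and the members followed single arrays in part. Treated array 30 was the lowest of the 6 for NFKB1, NFKB2, RELB, RELA, NFKBIA, NFKBIB and TNFAIP3. Control array 25 was the highest for NFKB1, NFKB2, RELB, RELA, NFKBIA and NFKBIB. REL ran opposite to these genes on those arrays, lowest on array 25 and highest on array 30. The leading principal component of the 6 arrays held 50.04% of their variance and set the same arrays apart, with scores of -57.5, 26.9 and 4.33 for arrays 25 to 27 and -31.0, 6.71 and 50.6 for arrays 28 to 30. Its part in the members' values was not tested.

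Leaving out single arrays kept 8 of 9 members below 0 in each case. The members' median change went from -0.39 to -0.25 without control array 25, where the NFKB2 change was -0.23 and that of RELA -0.24. Without treated array 30 the NFKBIA change was -0.20. REL changed sign, at -0.37 without array 25 and -0.28 without array 30, and NFKBIB did so below background. NFKB1 ranged from -0.65 to -0.40, RELB from -0.63 to -0.41 and TNFAIP3 from -0.55 to -0.40 over the 6 omissions. Without arrays 25 and 28 together, all 9 members were below 0, with a median of -0.31.

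**Figure D4:**
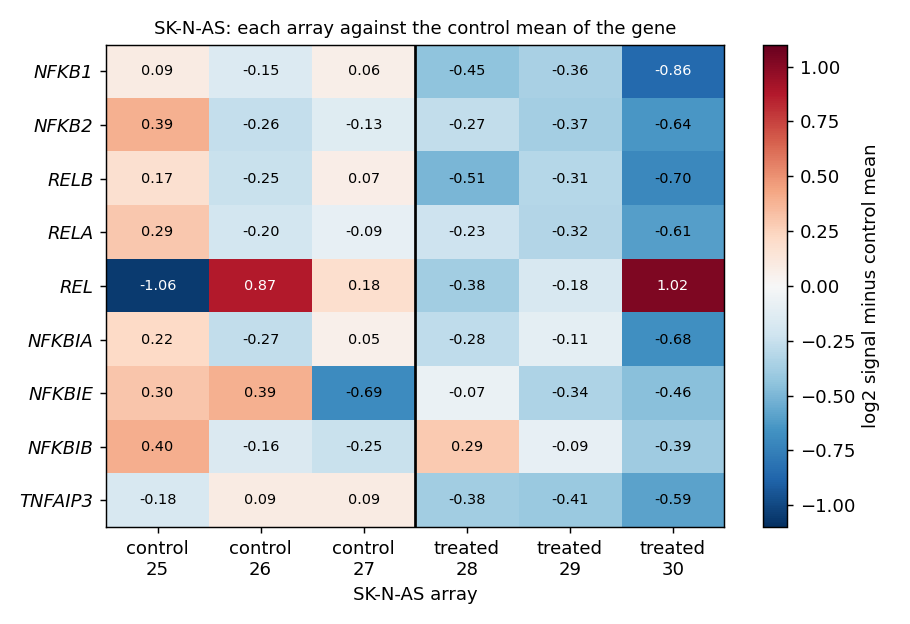
Log2 signal of each gene (rows) on each SK-N-AS array (columns) minus the mean of the 3 control arrays, in colour and as a printed value. Treated arrays 28, 29 and 30 are below 0 for every gene except NFKBIB on array 28 and REL on array 30, and the lowest treated values are mostly on array 30.

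In SK-N-FI cells, 4 of 9 members had a lower mean in treated cells, against 51.0% of all probe sets, and the median change was 0.04. Adjusted p from limma was 1 for each member, and limma called 0 of 21448 probe sets (0%), with 611 at an unadjusted p under 0.05. Only RELA, REL, NFKBIA and NFKBIE were above background on all 4 SK-N-FI arrays. RELA had a log2 change of -0.04 and NFKBIA of 0.04. REL had one of -0.51 (95% interval -1.01 to -0.0012), from 8.93 ± 0.15 to 8.42 ± 0.07 (SD, n = 2), with arrays that did not overlap. NFKBIE had a change of -0.39, with treated array 1 among the controls. Arrays that did not overlap were also found for NFKBIB, higher in treated cells by 0.16 and below background. That makes 1 of 9 members lower and 1 of 9 higher, against 14.0% and 13.8% of all probe sets, which is near the background.

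NFKB1 in SK-N-FI had a change of 0.18 (-0.62 to 0.97), and its sign turned with single arrays, from -0.28 to 0.63. NFKB2, RELB and TNFAIP3 were below background on all 4 arrays, so their changes of 0.28, 0.20 and -0.29 say little about the transcripts.

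The difference of the treatment effects, SK-N-AS minus SK-N-FI, was tested over all 10 arrays. It was below 0 for 7 of 9 members, against 49.7% of all probe sets, and the median was -0.35. RELB had a difference of -0.70 (95% interval -1.42 to 0.02), NFKB1 of -0.73 (-1.63 to 0.17) and NFKB2 of -0.71. NFKBIA had one of -0.40, RELA of -0.35, TNFAIP3 of -0.17, NFKBIE of 0.10 and REL of 0.66. None passed (limma adjusted p = 1.00 for each), and limma called 0 of 21448 (0%), with 457 at an unadjusted p under 0.05. A difference of the effects between the lines was therefore not shown for any member. NFKB2, RELB and TNFAIP3 were below background in SK-N-FI, NFKBIE in SK-N-AS and NFKBIB in both lines. For those members the difference includes a treatment effect that says little about the transcript. The interval of every member other than TNFAIP3 included a 2-fold difference.

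The rest of the pathway was read from lists of ligands, receptors, kinases and adaptors, other brakes, and target genes. Of 29 matched target genes, limma called 19 higher in SK-N-AS controls, against 11.5% of all probe sets, and 3 higher in SK-N-FI controls, against 47.8%. The median difference was 2.39 against -0.61 for all probe sets. After quantile normalization the counts were 22 and 0 of 29, against 24.1% and 22.5%. CCL2, the monocyte chemokine, read 4.66 and 3.99 in SK-N-FI controls and 16.61, 16.88 and 17.01 in SK-N-AS controls, a bound of at least 635-fold, or 891-fold after quantile normalization. The chemokine CCL20 was at least 75.9-fold higher, IL32 at least 35.6-fold and the pentraxin PTX3 at least 18.3-fold. After quantile normalization those bounds were 155-fold, 78.5-fold and 43.0-fold. NFKB1, NFKB2, RELB, NFKBIA and TNFAIP3 were high in the same line as most of these targets.

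Of 8 matched ligands, 1 was called higher in SK-N-AS (IL1B), against 11.5% of all probe sets. In SK-N-FI 1 was called higher (LTA, which was below background), against 47.8%. After quantile normalization the counts were 2 and 1 of 8, against 24.1% and 22.5%. IL1B, the cytokine interleukin-1 beta, read 3.10 and 3.54 in SK-N-FI controls and 16.86, 17.06 and 17.20 in SK-N-AS controls, at least 735-fold higher, or 994-fold after quantile normalization. Of 12 matched receptors, 4 were called higher in SK-N-AS, against 11.5% of all probe sets, and 4 in SK-N-FI, against 47.8%. After quantile normalization the counts were 6 in SK-N-AS and 2 in SK-N-FI, against 24.1% and 22.5%. The lymphotoxin receptor LTBR was higher in SK-N-AS, at least 1.26-fold, or 3.28-fold after quantile normalization. TLR4 and the neurotrophin receptor NGFR were higher in SK-N-FI, at least 8.54-fold and 5.29-fold, or 2.75-fold and 1.76-fold after quantile normalization.

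Of 16 matched kinases and adaptors, 4 were called higher in SK-N-AS, against 11.5% of all probe sets. Among them were TRAF1, at least 2.20-fold, and TRAF3, by a log2 difference of 2.12. After quantile normalization TRAF1 was at least 5.82-fold higher and the TRAF3 difference was 3.63. A further 9 of the 16 were called higher in SK-N-FI, a share near the 47.8% of all probe sets. MYD88 was among them (-3.68, and -2.01 after quantile normalization), as was TRAF6 (-2.03), whose call ended after quantile normalization at -0.46. Those list counts were then 6 and 2 of 16, against 24.1% and 22.5%. Of 14 matched other brakes, 2 were called higher in SK-N-AS cells and 6 in SK-N-FI, both near the 11.5% and 47.8% of all probe sets. The A20-binding protein TNIP1 was higher in SK-N-AS (2.79, and 4.20 after quantile normalization), and the deubiquitinase OTULIN was higher in SK-N-FI (-2.87, and -1.16 after quantile normalization). The counts of the brakes were 6 and 1 of 14 after quantile normalization, against 24.1% and 22.5%.

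**Figure D5:**
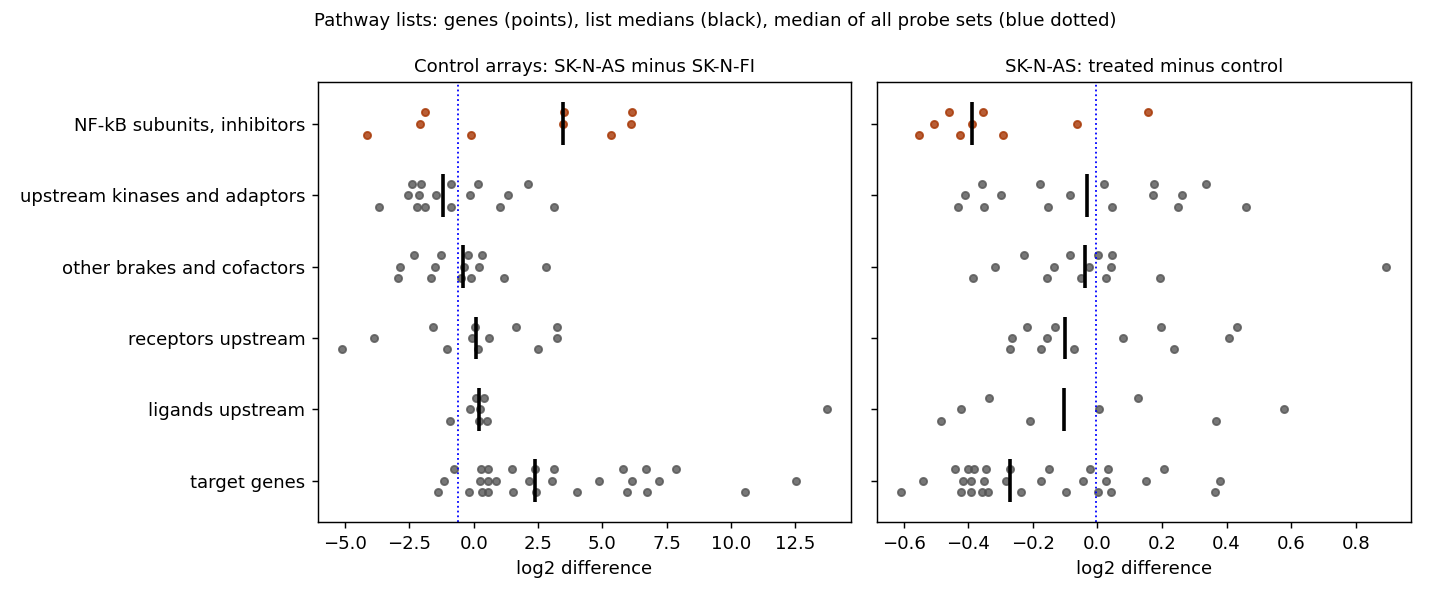
Log2 differences of single genes (points) and list medians (black bars) for the members and 5 pathway lists, between control arrays of the cell lines (left, SK-N-AS minus SK-N-FI) and between treated and control SK-N-AS cells (right). Blue dotted lines are the medians of all probe sets, -0.61 and -0.00467; the medians of the members and of the target genes lie at 3.47 and 2.39 on the left and at -0.39 and -0.27 on the right.

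With treatment in SK-N-AS, 21 of 29 target genes had a lower mean, against 50.8% of all probe sets, and their median change was -0.27. The arms did not overlap for 4 of the 29, all 4 lower in treated cells, against 4.02% of all probe sets, and for none in the other direction, against 3.29%. LIF, a cytokine of the interleukin-6 family, read 10.08, 10.04 and 10.52 in controls and 9.61, 9.41 and 9.79 in treated cells, with no overlap. The adhesion molecule ICAM1 read 9.85, 9.26 and 9.69 in controls and 9.38, 8.95 and 8.85 in treated cells, with treated array 28 above the lowest control. The changes of LIF and ICAM1 were -0.61 and -0.54, and CSF1 and PTX3 had changes of -0.38 and -0.35. LIF, ICAM1, CSF1 and PTX3 were named for the smallest p in this contrast among targets above background. The target list was chosen with earlier results of these data known. Its counts are given as a description and are no independent evidence of a lower pathway. The list medians of the upstream genes lay nearer 0, at -0.03 for kinases and adaptors (8 of 16 lower), -0.04 for other brakes (8 of 14), -0.10 for receptors (7 of 12) and -0.10 for ligands (4 of 8). TRAF3, an adaptor that restrains the noncanonical pathway, had a change of -0.36 with no overlap, and TNIP1 had one of -0.39. No gene of these lists was called with treatment in either line. In SK-N-FI cells, 15 of 29 target genes had a lower mean, against 51.0% of all probe sets, with a median of -0.01.

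The genes with the profiles most like those of 4 members were sought over the 10 arrays. Candidates were the 8690 probe sets above background on at least 3 arrays, which SK-N-AS alone can supply. Likeness was measured by the root mean square difference of log2 profiles centred on their own means. NFKBIA was nearest to TNFAIP2 (0.18), COL6A2 (0.21) and CTAG2 (0.23). NFKB2 was nearest to BST2 (0.21), SQSTM1 (0.23) and CEMIP (0.28). NFKB1 was nearest to CITED4 (0.22), NID1 (0.25) and MXRA8 (0.26), and RELB to NTPCR (0.20), IL4R (0.23) and NID1 (0.24). The members' own spread about their means was 2.92 for NFKBIA, 2.47 for NFKB2, 1.58 for NFKB1 and 1.55 for RELB, and it came mostly from the line difference, so the likeness is to other genes that differ between the lines. In SK-N-FI controls, BST2, CEMIP, CITED4, MXRA8, CTAG2, TNFAIP2, COL6A2 and IL4R had means of 2.75 to 6.37. Those lay below the background thresholds of 7.44 and 7.61, whereas SQSTM1, NID1 and NTPCR lay above, at 7.84 to 11.42. NFKB2 and RELB were below background there too, so their likeness to such genes is partly between signals below background.

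The line labels were set against marker genes. Of 12 matched noradrenergic markers, 11 were above background on every SK-N-FI array and 6 to 7 on each SK-N-AS array. DBH, PHOX2A, GAP43 and SLC6A2 were below it in SK-N-AS. Between controls, limma calls favoured SK-N-FI for 10 of the 12 markers and SK-N-AS for 0, against 47.8% and 11.5% of all probe sets. After quantile normalization, 6 calls favoured SK-N-FI, against 22.5% of all probe sets, and 2 favoured SK-N-AS, against 24.1%. The calls for SK-N-AS were those of TBX2 (log2 difference 1.42) and CHGA (1.26). HAND2, GATA3, DDC and TH lost their calls on that scale. The mesenchymal markers did not separate the lines as clearly, as 6 to 9 of 12 exceeded background on SK-N-AS arrays and 4 to 6 on SK-N-FI arrays. Of 9 matched leukocyte markers, 0 exceeded background on SK-N-FI arrays, and 1 to 3 did on SK-N-AS arrays. There CD68 was above it on all 6 arrays and PTPRC on 5 of 6, while CD3E, MS4A1, CD14, LYZ, FCER1G and ITGAM were below it on every array. TYROBP exceeded it only in SK-N-AS controls, and not on every array there. The summed linear signal of the 9 leukocyte markers was 4708 to 5843 in SK-N-AS controls and 3660 to 5174 in treated cells. Of 8 fibroblast and endothelial markers, 5 exceeded background on every SK-N-AS array and 2 to 5 on SK-N-FI arrays. The fibroblast matrix genes DCN and LUM had higher called values in SK-N-AS controls, by log2 differences of 5.25 and 6.56, and THY1 was called higher in SK-N-FI (-3.20). COL1A2 and PDGFRB had control differences of -0.84 and -0.64, which turned to 0.83 and 0.86 after quantile normalization. PECAM1, CDH5 and VWF, the endothelial genes of the list, were below background on all 10 arrays. The summed linear signal of the 8 was 7484 to 7856 in SK-N-FI controls and 7881 to 9861 in treated SK-N-FI cells. It was 13534 to 35981 in SK-N-AS controls and 20068 to 63765 in treated SK-N-AS cells. The part of these markers in the members' line differences was not tested.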

How the data were processed

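RNA was isolated with Trizol, and whole-transcript targets labelled with biotin were run on Affymetrix arrays, per the labels' protocols. The authors deposited 1 log2 signal for each probe set and array. RMA and the Transcriptome Analysis Console, version 4.0.1.36, are credited to the submitters' processing notes, with no role given. RMA equalises the arrays it is run on, so a shift shared by most genes would be removed. Of 24351 probe sets, 2903 controls were left out and 21448 were tested with limma 3.58.1 in R 4.3.3 (lmFit, eBayes, Benjamini-Hochberg over all, threshold 0.05). Treatment was fitted within each line, and line and interaction contrasts over all 10 arrays in 4 groups. Fits were tested on simulated data. All members were named. Of each pathway list, up to 4 genes with the smallest p among those above background on all arrays of a group were eligible. The 3 nearest profiles were named. Members and lists were chosen with earlier results of these data known. Alternatives covered scaling, eBayes settings, dim probe sets, array weights, thresholds, blocks and omitted arrays. Chosen after seeing the data were the omission of SK-N-AS arrays 25 and 28 and a crossed block. No arrays held identical values. Precision is limited by the number of arrays.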

Additional observations from a re-analysis of the deposited data

How the results depend on the processing

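Of 262 counts and medians recomputed under an alternative, 255 were kept within the limits set and 7 moved. Of 585 recomputed values of single members, 534 kept to those limits, 40 moved, 9 lost their call (8 of REL and 1 of RELA) and 2 reversed. The reversed values were the treated line difference of REL, at 0.20 after quantile normalization, and the control line difference of NFKBIB, below background, at 0.76 with median centring. Against the 99th percentile of the negative controls, REL and RELB exceeded background on 0 arrays, NFKBIE on 1, TNFAIP3 on 3, RELA on 4 and NFKBIA on 6. The members' median line difference went from 3.47 to 4.28 with quantile normalization and to 4.31 with median centring in controls, and from 2.77 to 3.57 and 3.60 in treated cells. It ranged from 2.32 to 2.86 in treated cells with single arrays left out. With only probe sets above background on 2 arrays, calls between the lines went from 12726 to 8288 in controls and from 12665 to 7864 in treated cells, as fewer were tested. With the replicate block on the array number, SK-N-FI had 0 calls, 4 of 9 members below 0 and a median of 0.04. Deviations of same-numbered SK-N-FI arrays had a correlation of -0.17, and the crossed block, chosen after seeing the data, also gave 0 calls. No paired analysis was possible for SK-N-AS, because its arms share no array numbers. With 2 or 3 arrays per group, and several members below background in a line, small changes could not be resolved.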
